A study of Mus musculus with 10 samples.

Results

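The insulin-like growth factor genes described here are the 2 ligands Igf1 and Igf2, the 2 receptors Igf1r and Igf2r, and the 6 binding proteins Igfbp2 to Igfbp7. They are 10 of the 56748 genes in the deposited count table, found by their gene symbols, and all 10 passed the filter on low counts that left 16169 genes for testing. The genes were put together by name with their levels in these libraries already known, so the adjusted p-values below say where each gene stood in a fit of all genes and are no independent evidence. The material was the 3xR line of mouse embryonic stem cells at day 14, from which cells positive for a Prg4-tdTomato or a Col2a1-eGFP reporter were isolated for poly(A) RNA sequencing. The groups were Prg4-tdTomato+ cells with Fsk (3 libraries, numbers 1, 4 and 5), Prg4-tdTomato+ cells with DMSO (3 libraries, numbers 1, 3 and 5) and Col2a1-eGFP+ cells with DMSO (4 libraries, numbers 1, 3, 4 and 5). Fsk is the labels' abbreviation, commonly used for forskolin, an activator of adenylyl cyclase that raises cyclic AMP, and DMSO is the solvent control. All libraries come from the same cell line, and no label says if replicate libraries are separate cultures; p-values therefore reflect the spread among the 10 libraries, which may be technical.

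Igf1 and Igf2 are secreted growth factors that act through the receptor tyrosine kinase Igf1r, whereas Igf2r, the cation-independent mannose 6-phosphate receptor, takes up Igf2 and carries it to lysosomes. The binding proteins hold the ligands outside cells, prolong their life and limit or direct their access to the receptor, and proteases such as Pappa and Pappa2 cut them and free the ligand. In the skeleton the system is known for driving growth plate chondrocyte growth and the growth of tendon and bone cells.

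The libraries held 15355459 to 18988782 counted reads in Fsk tdTomato+ cells, 18023599 to 20408696 in DMSO tdTomato+ cells and 15561217 to 20391156 in DMSO eGFP+ cells. Col2a1, the gene that drives the eGFP reporter, was at 19.7 to 53.6 CPM (counts scaled to library size) in Fsk tdTomato+ cells, 82.0 to 390.1 CPM in DMSO tdTomato+ cells and 838 to 2992 CPM in DMSO eGFP+ cells. Prg4, the gene behind the tdTomato reporter, was near 0 in every library, at 0.67 to 0.79 CPM in Fsk tdTomato+ cells, 0.48 to 1.25 CPM in DMSO tdTomato+ cells and 0 to 2.55 CPM in DMSO eGFP+ cells, so its RNA did not mark the tdTomato+ cells. The sum of 8 chondrocyte markers ran over 192 to 276 CPM in Fsk tdTomato+ cells, 503 to 880.1 CPM in DMSO tdTomato+ cells and 1552 to 4937 CPM in DMSO eGFP+ cells, with none of the 8 at 0 throughout a group. The sum of 8 proliferation markers, none at 0 throughout a group, ran over 205 to 612 CPM, 33.1 to 70.9 CPM and 39.6 to 217 CPM in the same 3 groups. Col2a1 is among the 8 chondrocyte markers, so sorting on its reporter may build part of the difference between DMSO groups into that sum. Acan (74.1 to 360 CPM in tdTomato+, 155 to 448 CPM in eGFP+ cells) and Sox9 overlapped between the DMSO groups. Col9a1, Col11a2, Matn3, Hapln1 and Cnmd did not. The chondrocyte sum separated the groups in every comparison below. The proliferation sum separated only Fsk from DMSO tdTomato+ cells. The part of these sums in the results was not tested.

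Per kilobase of exon and averaged over all 10 libraries, 5 of the 6 binding proteins were the most abundant genes of the system. Igfbp6, the receptor Igf1r and the ligand Igf1 were the least abundant. In RPKM (CPM divided by kilobases of exon), the mean over all 10 libraries was 431 for Igfbp5, 169.6 for Igfbp4, 155 for Igfbp2, 142 for Igfbp7, 56.6 for Igfbp3, 33.6 for Igf2r, 27.8 for Igf2, 9.83 for Igf1, 5.34 for Igf1r and 4.33 for Igfbp6. Igfbp5 had the highest group mean in each of the 3 groups, at 727 ± 143 RPKM in Fsk tdTomato+ cells (SD, n = 3), 362 ± 163 RPKM in DMSO tdTomato+ cells (SD, n = 3) and 261 ± 217 RPKM in DMSO eGFP+ cells (SD, n = 4). Behind it the order differed between groups. In Fsk tdTomato+ cells Igfbp2 at 463 ± 319 RPKM and Igfbp4 at 352 ± 149 RPKM came next, and these neighbours did not differ beyond their spread. In DMSO tdTomato+ cells Igfbp7 at 116 ± 66.6 RPKM and Igfbp4 at 106 ± 10.9 RPKM came next, again within their spread, and Igfbp2 stood at 24.3 ± 6.71 RPKM. In DMSO eGFP+ cells Igfbp7 at 210 ± 133 RPKM lay within the spread of Igfbp5, above Igfbp4 at 80.6 ± 8.48 RPKM, and Igfbp2 stood at 21.5 ± 7.04 RPKM. Igf2r, Igf2 and Igfbp3 lay within each other's spread in both DMSO groups. Their means were 31.2, 27.1 and 30.6 RPKM in DMSO tdTomato+ cells and 28.0, 25.4 and 30.3 RPKM in DMSO eGFP+ cells. Each lay above the Igfbp2 mean of the same group, though within the spread. The higher place of Igfbp2 over all libraries came from the Fsk libraries. Igfbp1, a liver binding protein gene outside the set, had 1 read in all 10 libraries together.

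**Figure D1:**
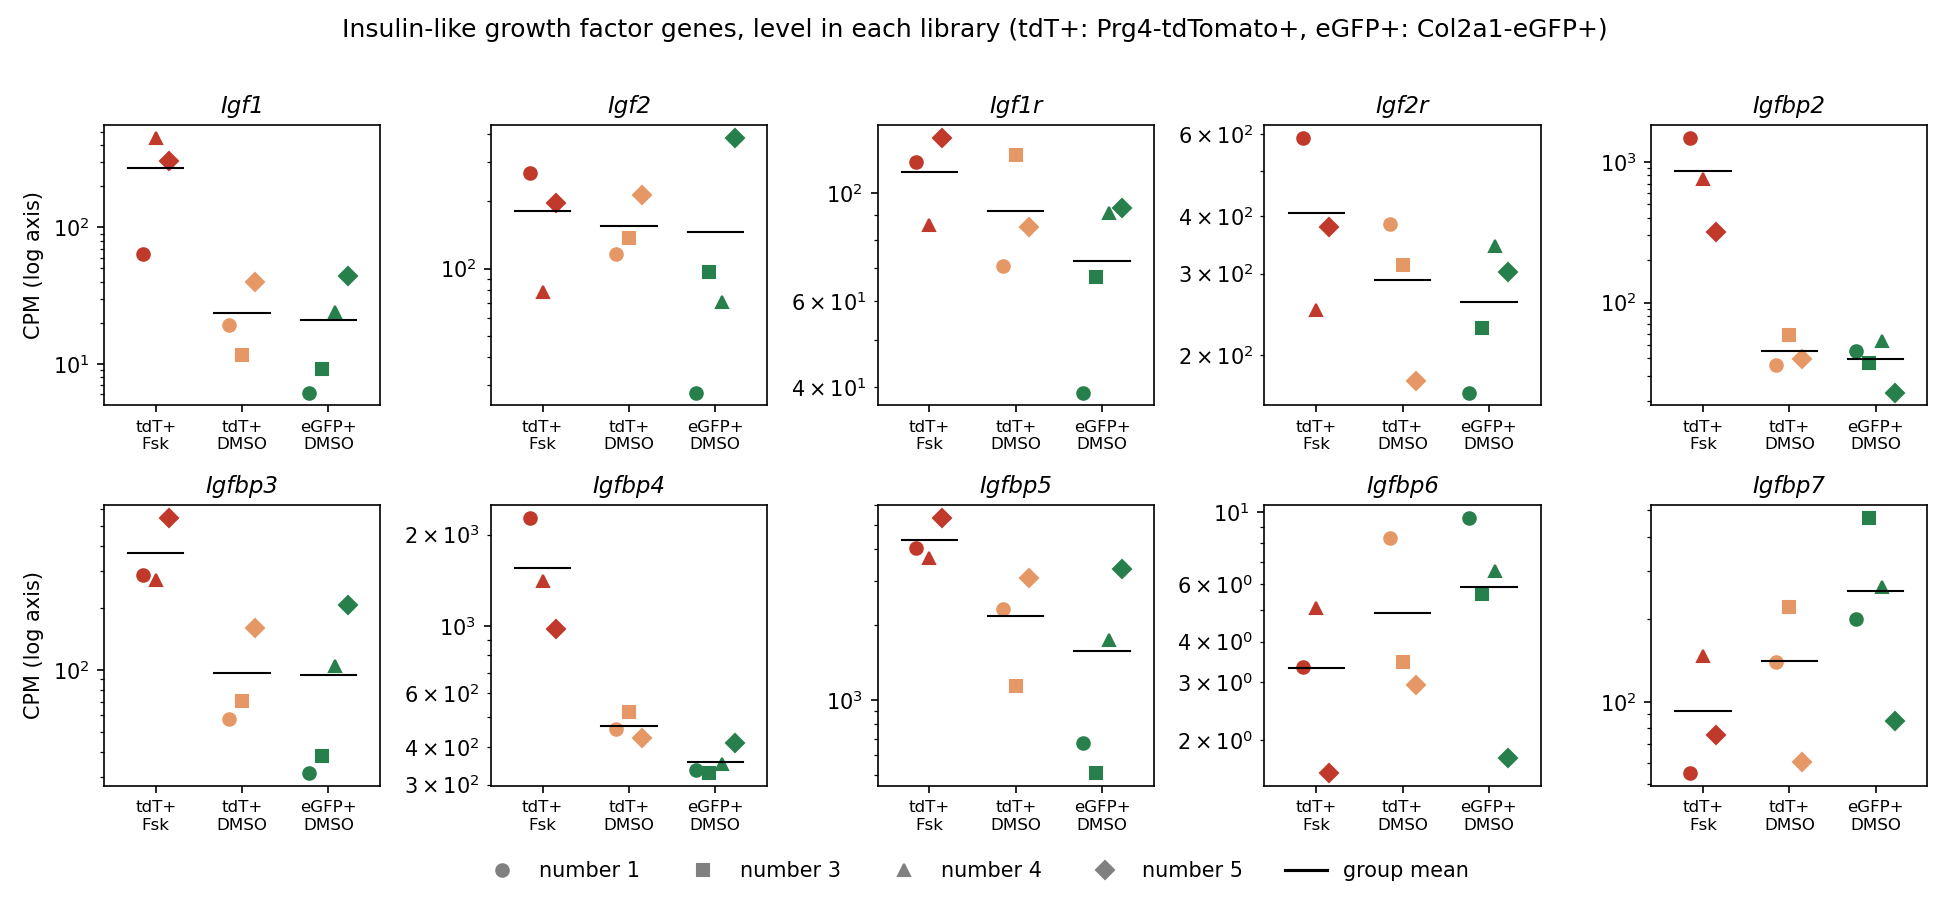
Level of each of the 10 genes in every library, in CPM on a log axis, with Fsk tdTomato+ cells (n = 3), DMSO tdTomato+ cells (n = 3) and DMSO eGFP+ cells (n = 4) from left to right, a point for each library and a bar at the group mean. Igfbp2 sits at 318 to 1484 CPM in the Fsk libraries and at 22.9 to 59.1 CPM in the 7 DMSO libraries.

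The set was first compared between Fsk and DMSO in tdTomato+ cells, which addresses the effect of Fsk within a reporter population. Igfbp2 rose 19-fold and was the 1 gene of the 10 that passed the edgeR quasi-likelihood test at a Benjamini-Hochberg adjusted p of 0.05 over all genes. Of all 16169 genes tested, 0.569% passed in this comparison, 0.297% as higher in Fsk. Igf1, Igfbp3, Igfbp4 and Igfbp5 also had every Fsk library above every DMSO tdTomato+ library without passing, which makes 5 of the 10 genes with no overlap and a higher level, against 9.01% of all genes tested. The median log2 fold change was 0.75 over the 10 genes, 8 of them above 0, against -0.026 over all genes tested. In bulk RNA, a change in the share of cells of a type and a change in RNA per cell cannot be told apart.

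**Figure D2:**
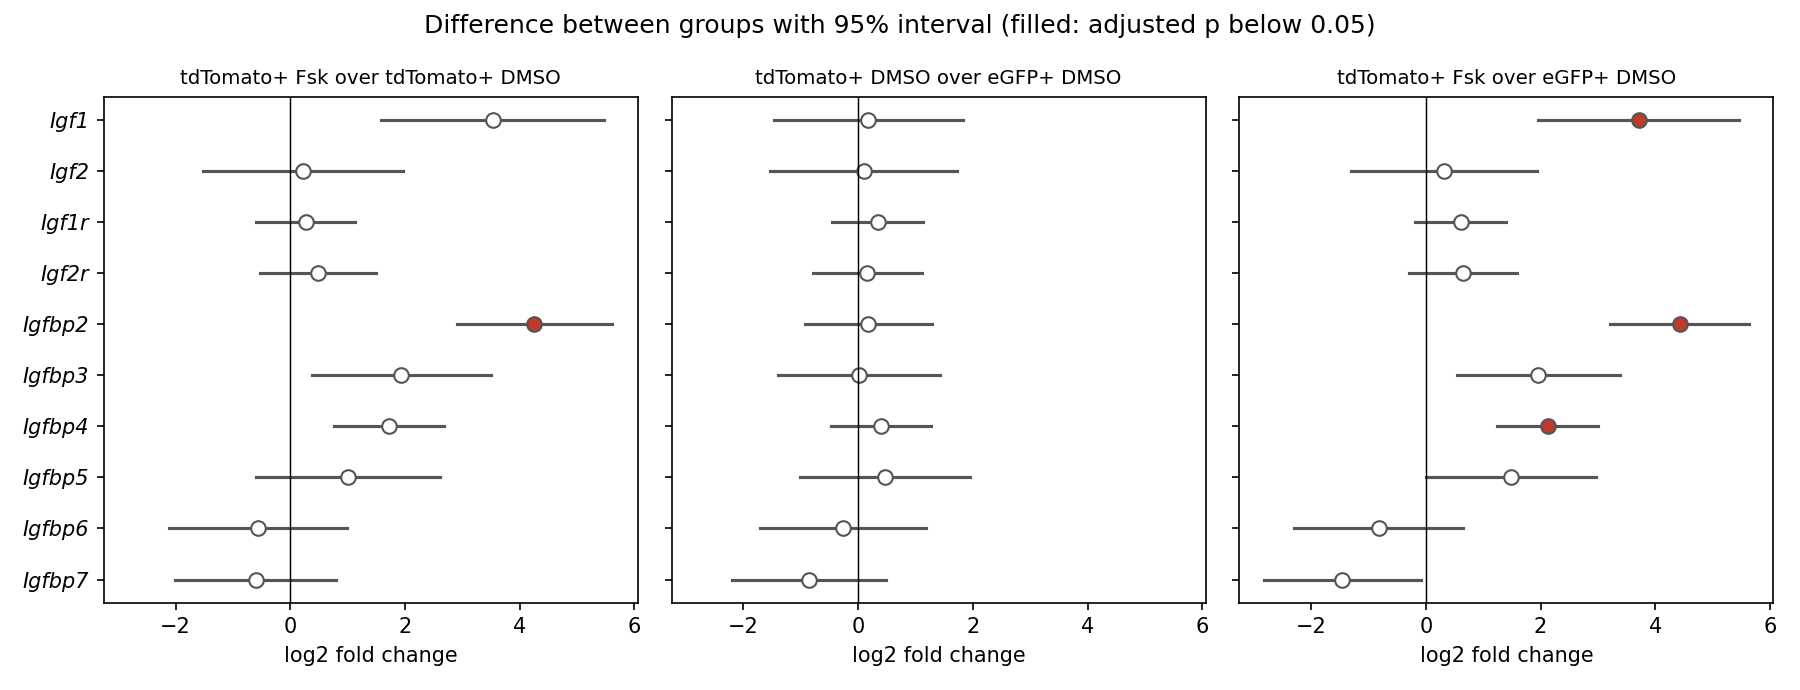
Log2 fold change of each gene with its 95% interval in the 3 comparisons, from the edgeR fit of all 10 libraries; values above 0 are higher in the group named first. Igfbp2 lies at 4.25 for Fsk against DMSO tdTomato+ cells and 4.43 for Fsk tdTomato+ against DMSO eGFP+ cells, and the intervals for DMSO tdTomato+ against DMSO eGFP+ cells all include 0.

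Of the ligands, Igf1 separated the Fsk libraries from the DMSO libraries and Igf2 did not. Igf1, the growth hormone-responsive ligand that cells of many tissues also make locally, was at 63.5, 452 and 304 CPM in Fsk libraries 1, 4 and 5, against 19.2, 11.6 and 40.2 CPM in DMSO tdTomato+ libraries 1, 3 and 5. The groups did not overlap, although Fsk library 1 was closer to DMSO library 5 than to the other Fsk libraries. The log2 fold change was 3.53 (SE 0.82) with an adjusted p of 0.0886 in edgeR, which missed the threshold, and the ratio was 3.30 between the libraries numbered 1 and 7.57 between those numbered 5. It passed in DESeq2 (adjusted p = 0.000213), in edgeR without a filter on low counts (3.27e-05) and in edgeR with only the compared groups (0.0416), and not in limma-voom (0.0786). DMSO eGFP+ libraries 1, 3, 4 and 5 held 6.20, 9.20, 24.1 and 44.0 CPM, so Fsk tdTomato+ cells lay above every one of them as well. Against these, Igf1 rose by 3.71 on the log2 scale (SE 0.74, adjusted p = 0.0260, edgeR), a 13.1-fold difference. That call was lost when any one of Fsk libraries 4 and 5 or DMSO eGFP+ libraries 1, 3 and 4 was left out (adjusted p 0.0559 to 0.0995).

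Igf2, the fetal growth factor expressed from the paternal allele, had 268, 78.4 and 197 CPM in Fsk libraries 1, 4 and 5, against 116, 137 and 213 CPM in DMSO tdTomato+ libraries 1, 3 and 5. Those ranges overlapped, and DMSO eGFP+ libraries spread more widely still, at 27.8, 96.9, 70.5 and 385 CPM for numbers 1, 3, 4 and 5. The log2 fold change was 0.22 (95% interval -1.52 to 1.97) for Fsk against DMSO tdTomato+ cells and 0.32 (95% interval -1.30 to 1.94) for Fsk tdTomato+ against DMSO eGFP+ cells. Within the Fsk group the ligands ran in opposite orders: library 4 had the most Igf1 and the least Igf2, and library 1 the reverse. The ratio of Igf2 to Igf1 in RPKM was 7.31, 0.300 and 1.12 in Fsk libraries 1, 4 and 5, against 10.4, 20.3 and 9.19 in DMSO tdTomato+ libraries 1, 3 and 5. In DMSO eGFP+ libraries 1, 3, 4 and 5 it was 7.77, 18.2, 5.06 and 15.2, so Fsk libraries 4 and 5 were below all 7 DMSO libraries and Fsk library 1 was within their range. The summed ligand level was 59.2 ± 5.95 RPKM in Fsk tdTomato+ cells, 29.5 ± 10.3 RPKM in DMSO tdTomato+ cells and 27.5 ± 30.0 RPKM in DMSO eGFP+ cells.

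Neither receptor passed the test in any comparison. Igf1r, the signalling receptor, was at 116, 86.0 and 130 CPM in Fsk libraries 1, 4 and 5, against 70.6, 120 and 85.3 CPM in DMSO tdTomato+ libraries 1, 3 and 5, and at 38.9, 67.2, 90.9 and 93.2 CPM in DMSO eGFP+ libraries 1, 3, 4 and 5. The groups overlapped in both comparisons. Its log2 fold change was 0.27 (95% interval -0.59 to 1.12) for Fsk against DMSO tdTomato+ cells and 0.61 (95% interval -0.19 to 1.40) for Fsk tdTomato+ against DMSO eGFP+ cells. Igf2r, the clearance receptor, ran over 251 to 590.1 CPM in Fsk tdTomato+ cells, 176 to 383 CPM in DMSO tdTomato+ cells and 166 to 343 CPM in DMSO eGFP+ cells, again with overlap. Its log2 fold change was 0.48 (95% interval -0.54 to 1.50) for Fsk against DMSO tdTomato+ cells. The ratio of Igf2r to Igf1r in RPKM was 6.57 ± 2.28 in Fsk tdTomato+ cells, 6.08 ± 3.26 in DMSO tdTomato+ cells and 6.63 ± 0.81 in DMSO eGFP+ cells (SD, n = 3, 3 and 4).

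Among the binding proteins, Igfbp2 and Igfbp4 are the ones whose calls the results turn on, and the 250 bases before their RefSeq transcription starts (GRCm38.p6, plus strand for both) are shown for that reason. Capitals mark the GC box GGGCGG in the Igfbp2 window, chr1:72824230-72824479, and the TATA box TATAAA in the Igfbp4 window, chr11:99040994-99041243.
Igfbp2: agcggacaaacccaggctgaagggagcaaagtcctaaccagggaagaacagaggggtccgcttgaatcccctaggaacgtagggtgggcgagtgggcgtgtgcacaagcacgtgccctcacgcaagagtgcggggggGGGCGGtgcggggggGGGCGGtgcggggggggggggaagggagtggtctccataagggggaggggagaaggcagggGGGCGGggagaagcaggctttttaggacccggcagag
Igfbp4: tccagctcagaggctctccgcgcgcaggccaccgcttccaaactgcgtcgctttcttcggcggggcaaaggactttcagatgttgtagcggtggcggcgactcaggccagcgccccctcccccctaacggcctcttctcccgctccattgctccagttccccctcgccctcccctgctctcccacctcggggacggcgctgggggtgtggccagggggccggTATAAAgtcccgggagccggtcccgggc
Neither window lies in an annotated exon. RefSeq lists 14 such windows for the 10 genes, and they were searched on both strands for the full cyclic AMP response element TGACGTCA, its partial site TGACG, which lies within the full element, the GC box and the TATA box. The full element was in 0 of the 14 windows, against 1.55% of all 32851 windows of that length. TGACG was in windows of Igf2 and Igf2r (17.8% of all windows), the GC box in windows of Igf1r, Igf2, Igf2r, Igfbp2 and Igfbp7 (32.7%) and the TATA box in those of Igfbp4 and Igfbp6 (12.4%). These are matches of letters in short windows and say nothing about binding.

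Igfbp2, a binding protein of fetal and stem cells with an integrin-binding motif, lies on chromosome 1 from 72824503 to 72852474 (plus strand, GENCODE M21, GRCm38). It was at 1484, 761 and 318 CPM in Fsk libraries 1, 4 and 5, against 36.2, 59.1 and 39.4 CPM in DMSO tdTomato+ libraries 1, 3 and 5. The lowest Fsk library lay far above the highest DMSO library, while the Fsk libraries differed widely among themselves. The log2 fold change was 4.25 (SE 0.57, 95% interval 2.90 to 5.60, adjusted p = 0.0104, edgeR), and the ratio was 41.0 between the libraries numbered 1 and 8.08 between those numbered 5. DMSO eGFP+ libraries 1, 3, 4 and 5 held 45.5, 37.2, 53.3 and 22.9 CPM, close to the DMSO tdTomato+ libraries. Against them Igfbp2 rose by 4.43 on the log2 scale (SE 0.51, adjusted p = 0.00244, edgeR), a 21.5-fold difference. The call held when each library was left out in turn, in 6 of 6 fits against DMSO tdTomato+ cells and 7 of 7 against DMSO eGFP+ cells. The log2 fold change dropped most without Fsk library 1, to 3.60 against DMSO tdTomato+ cells and 3.77 against DMSO eGFP+ cells. In the Fsk libraries the proliferation marker sum was 612, 205 and 481 CPM for numbers 1, 4 and 5, and its relation to Igfbp2 was not tested.

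Igfbp4, a binding protein known mainly as an inhibitor of ligand action and cut by Pappa, lies on chromosome 11 from 99041244 to 99054392 (plus strand). It was at 2269, 1407 and 981 CPM in Fsk libraries 1, 4 and 5, against 458, 522 and 428 CPM in DMSO tdTomato+ libraries 1, 3 and 5. The Fsk libraries stood in the same order as for Igfbp2, and none overlapped the narrow DMSO range. The log2 fold change of 1.73 (SE 0.40) had an adjusted p of 0.0891 in edgeR and missed the threshold, and the ratio was 4.96 between the libraries numbered 1 and 2.29 between those numbered 5. It passed in DESeq2 (adjusted p = 4.78e-05) and in edgeR without a filter on low counts (0.0101), and not in limma-voom (0.0783). DMSO eGFP+ libraries ran over 328 to 410.5 CPM. Against them Igfbp4 rose 4.36-fold (log2 fold change 2.12, SE 0.37, adjusted p = 0.0153, edgeR), a call lost without Fsk library 1 (adjusted p = 0.0752) or without DMSO eGFP+ library 4 (adjusted p = 0.0696).

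Igfbp5, the most abundant of the set and a matrix-binding member that bone and connective tissue cells secrete, was at 4056, 3705 and 5342 CPM in Fsk libraries 1, 4 and 5, against 2307, 1133 and 3078 CPM in DMSO tdTomato+ libraries 1, 3 and 5. The groups did not overlap, but the gap was small beside the spread, and the log2 fold change of 1.01 (95% interval -0.59 to 2.61) had an adjusted p of 0.682 in edgeR. DMSO eGFP+ libraries 1, 3, 4 and 5 ran widely, at 675, 512, 1737 and 3348 CPM. Fsk tdTomato+ cells lay above all 4, at a log2 difference of 1.48 (SE 0.63, adjusted p = 0.359, edgeR), which passed with all counted genes kept (adjusted p = 0.0299). Igfbp5 lies tail to tail with Igfbp2 on chromosome 1, with 5457 bp between them, and its libraries stood in another order: number 5 was the highest Fsk library for Igfbp5 and the lowest for Igfbp2.

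Igfbp3, which carries most of the circulating ligand in a complex with Igfals, was at 287, 273 and 545 CPM in Fsk libraries 1, 4 and 5, against 57.4, 70.8 and 159.7 CPM in DMSO tdTomato+ libraries 1, 3 and 5. The groups did not overlap, and number 5 was the highest library in each. Its log2 fold change was 1.94 (SE 0.66, adjusted p = 0.268, edgeR). DMSO eGFP+ libraries 1, 3, 4 and 5 held 31.6, 38.0, 104 and 205 CPM, all below the Fsk libraries, at a log2 difference of 1.96 (SE 0.60, adjusted p = 0.157, edgeR). Among the edgeR fits that left out 1 library, that difference passed without DMSO eGFP+ library 5 (adjusted p = 0.0227) and in no other. It also passed in DESeq2 (adjusted p = 0.0268) and in edgeR without a filter on low counts (4.86e-05), and the difference from DMSO tdTomato+ cells passed without a filter (0.000566).

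Igfbp6 and Igfbp7 were the members with negative log2 fold changes, and neither passed in any comparison of the edgeR fit described. Igfbp6, which binds Igf2 in preference to Igf1, ran over 1.58 to 5.06 CPM in Fsk tdTomato+ cells, 2.95 to 8.29 CPM in DMSO tdTomato+ cells and 1.75 to 9.57 CPM in DMSO eGFP+ cells. It rested on 32 to 159 reads a library, and its log2 fold change for Fsk against DMSO tdTomato+ cells was -0.56 (95% interval -2.11 to 0.99). Igfbp7, a relative that binds the ligands weakly, was at 55.1, 147 and 75.7 CPM in Fsk libraries 1, 4 and 5, against 140.0, 221 and 60.4 CPM in DMSO tdTomato+ libraries 1, 3 and 5. The ranges overlapped, with a log2 fold change of -0.60 (95% interval -2.01 to 0.80). In DMSO eGFP+ libraries 1, 3, 4 and 5 it was at 201, 469, 263 and 85.1 CPM, and Fsk library 4 lay between the lowest and the next of them. On the log2 scale the difference was -1.46 (SE 0.58, adjusted p = 0.308, edgeR), and it passed with all counted genes kept (adjusted p = 0.0175).

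The binding protein genes were also read as a pool. The summed level of the 6 genes was 2133, 1560 and 1522 RPKM in Fsk libraries 1, 4 and 5, against 649, 548 and 734 RPKM in DMSO tdTomato+ libraries 1, 3 and 5, with no overlap. DMSO eGFP+ libraries 1, 3, 4 and 5 had sums of 398, 585, 654 and 800.4 RPKM, spread around those of the DMSO tdTomato+ cells and below every Fsk library. Igfbp2 made up 37.7%, 26.4% and 11.3% of that sum in Fsk libraries 1, 4 and 5, against 2.91% to 5.84% in DMSO tdTomato+ libraries and 1.55% to 6.19% in DMSO eGFP+ libraries. Igfbp7 made up 4.68% ± 2.86 in Fsk tdTomato+ cells, 19.4% ± 13.4 in DMSO tdTomato+ cells and 37.5% ± 23.7 in DMSO eGFP+ cells (SD, n = 3, 3 and 4). The Igfbp5 share was 43.2% ± 13.8, 54.5% ± 18.1 and 39.2% ± 23.7 in the same groups, within its spread. Binding protein RPKM per ligand RPKM was 29.9 ± 8.90 in Fsk tdTomato+ cells, 23.0 ± 5.85 in DMSO tdTomato+ cells and 40.2 ± 25.6 in DMSO eGFP+ cells, also within its spread. The shares and sums are a description with no test, since they are built from genes chosen with their levels known.

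**Figure D3:**
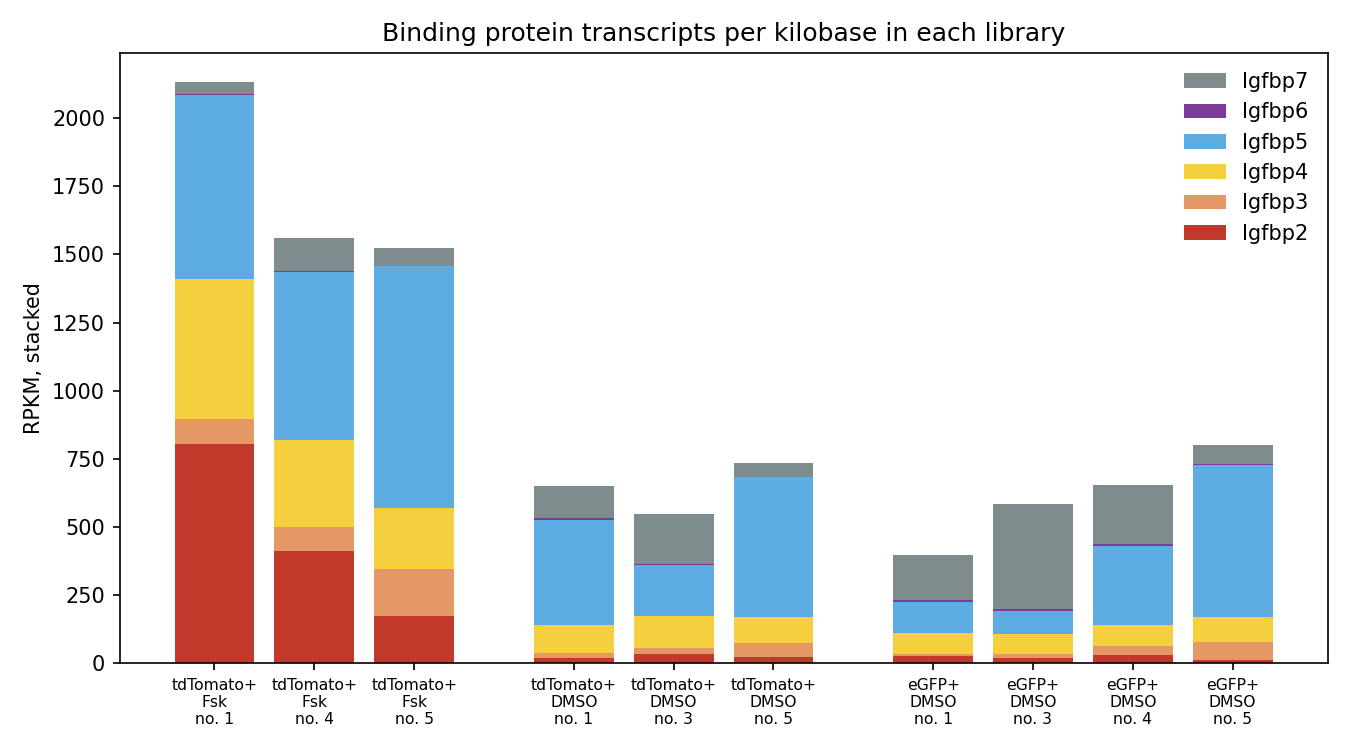
Summed RPKM of the 6 binding protein genes in each library, stacked by gene, with Fsk tdTomato+, DMSO tdTomato+ and DMSO eGFP+ libraries from left to right. The Fsk sums of 1522 to 2133 RPKM stand above the 7 DMSO sums of 398 to 800.4 RPKM, and the Igfbp2 part is visible mainly in the Fsk libraries.

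The DMSO populations were compared next, to ask whether the reporters separate cells that differ in this system. None of the 10 genes passed for tdTomato+ against eGFP+ cells, and none had an unadjusted p under 0.05. DESeq2 and limma-voom also called 0 of the 10. Over all genes the edgeR test called 0 of 16169 (0%), with 221 at an unadjusted p under 0.05, DESeq2 called 13 and limma-voom 0. The edgeR test thus missed Col2a1, at 82.0 to 390.1 CPM in tdTomato+ and 838 to 2992 CPM in eGFP+ cells. It also left out library number, although residuals of same-numbered DMSO libraries correlated at 0.671 to 0.688. The lack of calls therefore cannot show that the populations are alike in this system. Igfbp4 was the 1 gene with every tdTomato+ library above every eGFP+ library, at 428 to 522 CPM against 328 to 410.5 CPM, where 1.6% of all genes tested showed this. Its log2 fold change was 0.40 (95% interval -0.47 to 1.26). Igfbp7 had the lowest log2 fold change at -0.86 (95% interval -2.19 to 0.48). With library number as a block, which called 0.0866% of all genes, the 10 log2 fold changes ran over -0.68 (Igfbp7) to 0.80 (Igfbp5), and none passed.

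The DMSO populations were also compared within each library number. Igfbp7 was lower in tdTomato+ than in eGFP+ cells of each shared number, at ratios of 0.696, 0.472 and 0.710 for numbers 1, 3 and 5. Igf1 ratios were 3.10, 1.27 and 0.914 and Igfbp5 ratios 3.42, 2.21 and 0.919 for the same numbers, so these genes were higher in tdTomato+ cells of numbers 1 and 3 only. Igf2, Igf1r, Igf2r and Igfbp3 were likewise higher in numbers 1 and 3 and lower in number 5. Igfbp4 was higher in each shared number, at ratios of 1.37, 1.59 and 1.04. In both DMSO populations, number 5 held the most Igf1, Igf2, Igfbp3 and Igfbp5 and the least Igfbp7. In Fsk tdTomato+ cells number 5 held the most Igfbp3 and Igfbp5 but not the most Igf1 or Igf2.

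Fsk tdTomato+ against DMSO eGFP+ cells, a comparison that differs in both reporter and treatment and shares its Fsk libraries with the first, called 3 of the 10 genes, Igf1, Igfbp2 and Igfbp4, all higher. Of all genes tested, 1.36% passed, 0.643% as higher. The genes with no overlap and a higher level were again Igf1, Igfbp2, Igfbp3, Igfbp4 and Igfbp5, 5 of 10, against 6.59% of all genes tested.

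Other genes of the pathway were read from 7 lists with 82 genes, of which 71 passed the filter. For Fsk against DMSO tdTomato+ cells 1 of the 71 passed as higher and 0 as lower (0.569% of all genes tested), with a median log2 fold change of -0.17. Of the 71, 11 were at an unadjusted p under 0.05 in edgeR, against 1681 of all 16169 genes tested. For DMSO tdTomato+ against DMSO eGFP+ cells edgeR, DESeq2 and limma-voom each called 0 of the 71. In edgeR 1 of the 71 was at an unadjusted p under 0.05, against 221 of all 16169 genes tested. For Fsk tdTomato+ against DMSO eGFP+ cells 3 passed as higher and 1 as lower (1.36% of all genes tested), with a median of -0.13. DESeq2 called 6 of the 71 in the first comparison and 11 in the last, and limma-voom 1 and 3. Over all genes DESeq2 called 569 and 802 in these comparisons, and limma-voom 74 and 181.

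Among 9 tested proteases of the binding proteins and their inhibitors, Pappa2, a metalloproteinase known to cut Igfbp3 and Igfbp5, rose in Fsk tdTomato+ cells. It was at 48.0, 44.6 and 24.5 CPM in Fsk libraries 1, 4 and 5, against 5.11, 3.67 and 1.20 CPM in DMSO tdTomato+ libraries 1, 3 and 5. The groups were well apart, and DMSO eGFP+ libraries at 1.65 to 3.95 CPM lay with the DMSO tdTomato+ ones. For Pappa2 it was 3.56 on the log2 scale (SE 0.55, adjusted p = 0.0118, edgeR) against DMSO tdTomato+ cells and 3.80 (SE 0.50, adjusted p = 0.00424, edgeR) against DMSO eGFP+ cells. The first call was lost without Fsk library 1 (adjusted p = 0.0577), Fsk library 4 (0.0542) or DMSO tdTomato+ library 3 (0.0528), and the second held in every fit that left out 1 library. Stc1, a stanniocalcin that blocks Pappa and Pappa2, had 32.9, 4.67 and 6.34 CPM in Fsk libraries 1, 4 and 5, against 4.12, 2.43 and 0.878 CPM in DMSO tdTomato+ libraries 1, 3 and 5 and 0.516 to 1.58 CPM in DMSO eGFP+ libraries. Fsk library 1 stood apart from the other 2. Stc1 passed against DMSO eGFP+ cells (log2 fold change 3.98, SE 0.77, adjusted p = 0.0239, edgeR) but not against DMSO tdTomato+ cells (2.56, SE 0.80, adjusted p = 0.212, edgeR). Without Fsk library 1 the log2 fold change was 2.57 against DMSO eGFP+ cells and not called (adjusted p = 0.194), and 1.16 against DMSO tdTomato+ cells (adjusted p = 0.663). The call was also lost in limma-voom (0.0917) and without DMSO eGFP+ library 3 (0.0521) or 4 (0.0996), and the difference from DMSO tdTomato+ cells passed in DESeq2 (0.0266) and without a filter on low counts (0.00585).

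Among 10 tested relatives that carry a binding protein domain, Ccn2, a matricellular protein also known as connective tissue growth factor, fell in Fsk tdTomato+ cells against DMSO eGFP+ cells. It was at 79.6, 153 and 232 CPM in Fsk libraries 1, 4 and 5, against 1053, 3028, 1723 and 473 CPM in DMSO eGFP+ libraries 1, 3, 4 and 5, a log2 difference of -3.34 (SE 0.72, adjusted p = 0.0379, edgeR). The groups did not overlap. DMSO tdTomato+ libraries 1, 3 and 5 held 757, 1660 and 441 CPM, also above all Fsk libraries, at a log2 difference of -2.62 (SE 0.71) that missed the threshold (adjusted p = 0.138, edgeR) and passed in DESeq2 (0.00297), without a filter on low counts (9.83e-06) and with only the compared groups (0.0414). The call against DMSO eGFP+ cells was kept without DMSO eGFP+ library 5 (adjusted p = 0.00977) and lost without any other 1 of the 7 libraries (0.0520 to 0.202).

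Of 14 imprinted growth genes, Peg10, a paternally expressed gene of retrotransposon origin, passed as higher in Fsk tdTomato+ than in DMSO eGFP+ cells. It had 143, 17.7 and 40.6 CPM in Fsk libraries 1, 4 and 5, against 7.37, 6.47, 7.28 and 16.1 CPM in DMSO eGFP+ libraries 1, 3, 4 and 5. The groups did not overlap, though Fsk library 4 lay just above DMSO eGFP+ library 5, and Fsk library 1 stood far from the rest. On the log2 scale Peg10 was 2.84 higher (SE 0.61, adjusted p = 0.0379, edgeR). It was 1.65 without Fsk library 1 and not called (adjusted p = 0.263), and the call was also lost without Fsk library 5 (0.0746), without DMSO eGFP+ library 1 (0.0916), 3 (0.102) or 4 (0.137) and in limma-voom (0.106). DMSO tdTomato+ libraries held 14.9 to 38.4 CPM.

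**Figure D4:**
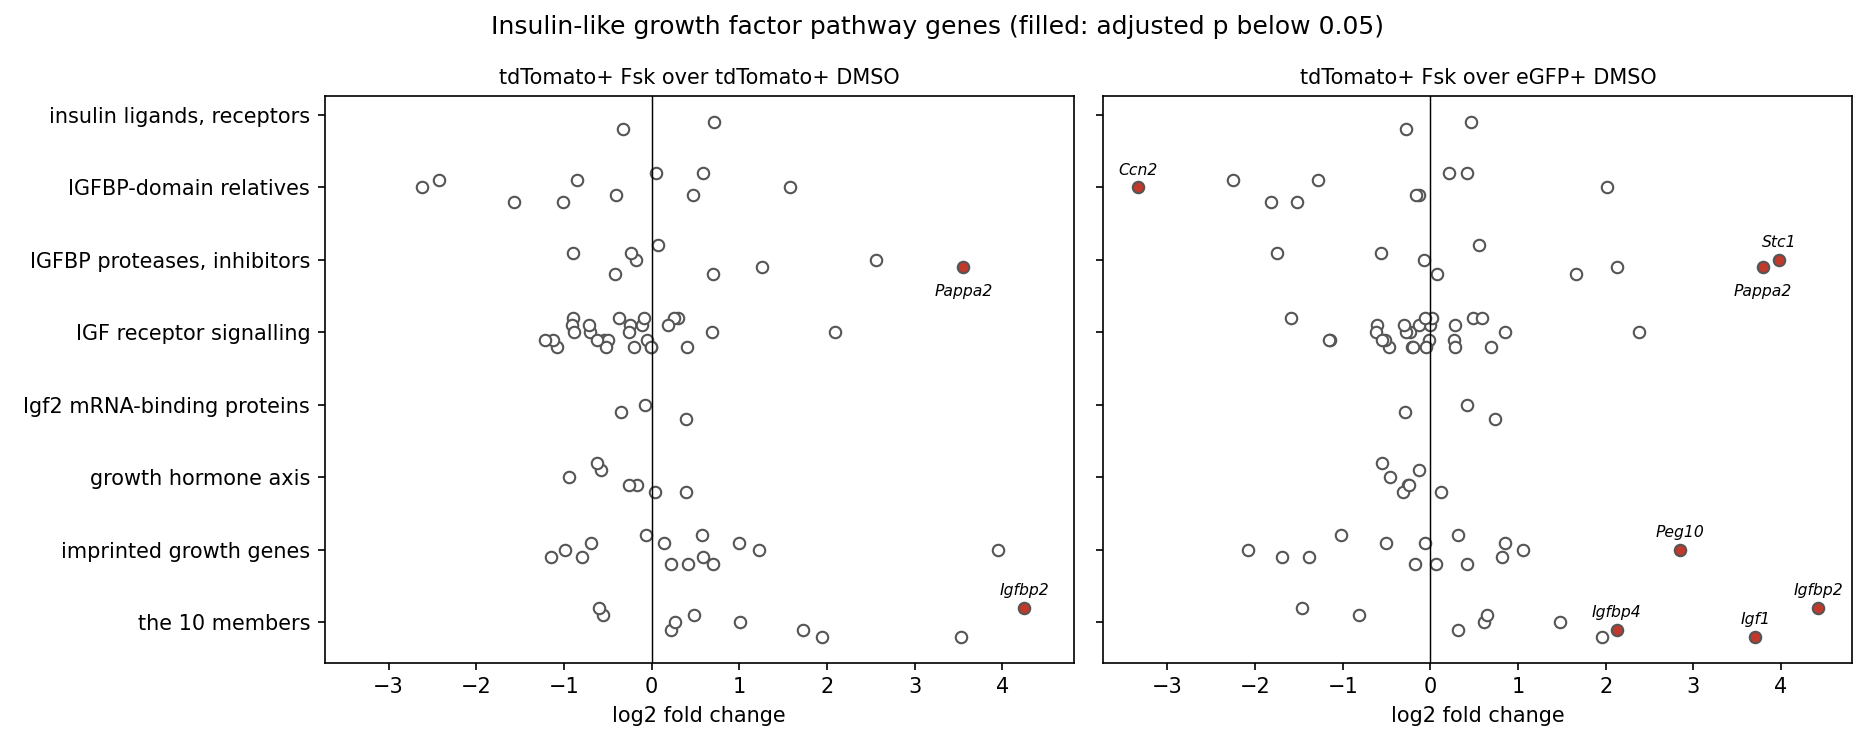
Log2 fold change of the tested pathway genes, grouped by list, for Fsk against DMSO tdTomato+ cells (left) and Fsk tdTomato+ against DMSO eGFP+ cells (right); named, filled points passed the edgeR test, and the bottom row shows the 10 genes of the set. Among the pathway lists Pappa2 is the named point on the left at 3.56, and Pappa2, Stc1, Peg10 and Ccn2 are named on the right.

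None of the 27 tested genes of receptor signalling, 3 Igf2 mRNA-binding proteins, 7 growth hormone axis genes and 2 insulin receptor and Igf2-antisense genes passed in any of the 3 comparisons of the edgeR fit described. For Fsk against DMSO tdTomato+ cells 4, 0, 1 and 0 of them had an unadjusted p under 0.05 in edgeR. Over all genes tested 1681 of 16169 did. The 27 signalling genes ran over log2 fold changes of -1.21 to 2.10 in that comparison, with 21 of them below 0. Their median was -0.26, against -0.026 over all genes tested. With library number as a block, 1 of the 27 passed as lower for Fsk against DMSO tdTomato+ cells. For Fsk tdTomato+ against DMSO eGFP+ cells 1 passed as higher and 1 as lower under the block. The most abundant signalling genes were Grb10, an imprinted adaptor that restrains the receptor, at 371 ± 13.8 CPM in Fsk tdTomato+ cells, 302 ± 54.6 CPM in DMSO tdTomato+ cells and 368 ± 171 CPM in DMSO eGFP+ cells, and the kinase Akt1 at 239 ± 59.3, 199.8 ± 51.3 and 170.4 ± 34.3 CPM in the same groups. Ghr, the growth hormone receptor, was at 80.7 ± 9.20 CPM in Fsk tdTomato+ cells, 61.3 ± 4.36 CPM in DMSO tdTomato+ cells and 74.1 ± 14.5 CPM in DMSO eGFP+ cells, and Socs2, which damps its signal, at 43.2 ± 19.3, 66.5 ± 20.6 and 63.6 ± 15.2 CPM. Igf2bp2, an mRNA-binding protein that binds Igf2 transcripts, was at 73.0 ± 23.2, 92.8 ± 12.6 and 89.5 ± 30.5 CPM, and Igf2bp1 at 25.6 ± 15.4, 19.5 ± 9.42 and 15.4 ± 2.79 CPM. The insulin receptor gene Insr was at 35.0 ± 7.26 CPM in Fsk tdTomato+ cells, 43.9 ± 5.81 CPM in DMSO tdTomato+ cells and 42.6 ± 15.5 CPM in DMSO eGFP+ cells.

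The genes whose pattern over the 10 libraries was most like that of Igfbp5, by Pearson's r of log2 CPM among 8911 genes at a mean of 10 CPM or more, were Etv6 (0.988), Pde7b (0.979) and Cdh2 (0.979). Those most like Igfbp2 were Cd34 (0.965), Mmp12 (0.964) and Gfra4 (0.953). Mmp12 averaged 55.7 CPM in Fsk tdTomato+ cells, 0.079 CPM in DMSO tdTomato+ cells and 0.10 CPM in DMSO eGFP+ cells. Cd34 averaged 55.6, 8.55 and 6.16 CPM and Gfra4 34.7, 5.32 and 4.70 CPM in the same groups. Cd34, Mmp12 and Gfra4 thus reached the mean of 10 CPM only through the Fsk libraries, and their likeness to Igfbp2 restates that group difference. The points share libraries and group differences, so these coefficients are descriptions.

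In GENCODE M21 (GRCm38), Igf1 lies on chromosome 10 from 87858265 to 87937042 (plus strand) and Igf2 on chromosome 7 from 142650766 to 142666816 (minus strand). Igf1r lies on chromosome 7 from 67952827 to 68233668 (plus strand) and Igf2r on chromosome 17 from 12682406 to 12769664 (minus strand). Igfbp3 lies on chromosome 11 from 7206086 to 7213923, Igfbp5 on chromosome 1 from 72857932 to 72874884 and Igfbp7 on chromosome 5 from 77349240 to 77408041, all on the minus strand, and Igfbp6 on chromosome 15 from 102144362 to 102149511 on the plus strand. Some levels rest on loci where annotated genes overlap, and the use of strand in counting is not given in the sources used here. Igf2 shares 98 bp of exon with the antisense gene Igf2os, which held 36 to 553 reads a library, so reads within those 98 bp cannot be assigned to either gene without strand. Igf2os averaged 13.2 ± 4.78 CPM in Fsk tdTomato+ cells, 8.03 ± 6.08 CPM in DMSO tdTomato+ cells and 9.54 ± 12.7 CPM in DMSO eGFP+ cells. Igf2 also shares 3596 bp of its 5723 bp of exon on the same strand with Gm49394, listed at 0 reads in every library. Strand cannot assign reads within those 3596 bp, and the sources do not say if they were kept for Igf2. The Igf2 levels, ratios to Igf1 and ligand sums above carry this limit. Igfbp7 shares 85 bp of exon with Polr2b, which held 884 to 1606 reads a library. Igf1, Igf2r and Igfbp7 have further overlapping genes with 0 bp of shared exon: Igf1os at 0 to 7 reads, Airn, the antisense RNA at Igf2r, at 260 to 642 reads, and Gm34648 at 0 to 7 reads a library. Mir483, inside Igf2, held 0 to 5 reads.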

How the data were processed

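Poly(A) RNA of 10 libraries was sequenced, with RNA extracted by Trizol per the labels' protocols and genome build mm10 per the submitters' processing notes. The authors deposited raw read counts per gene, whole numbers for 56748 genes; how reads were aligned, counted and assigned to strands is not given in the sources used here. Groups came from the sample titles. The 10 genes, the 7 pathway lists and the 10 marker lists were chosen with earlier results of these data known.

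The tests ran in edgeR 4.0.16 (R 4.3.3): filterByExpr by group (16169 genes kept), TMM scaling, and a robust quasi-likelihood fit with group as its term over all 10 libraries (7 residual degrees of freedom). P-values were adjusted by Benjamini-Hochberg over all genes tested, with 0.05 as threshold. The standard error is the log2 fold change over the square root of F, and 95% intervals use t with 7 degrees of freedom. These intervals can be wider than the test implies. For Igfbp5 in Fsk tdTomato+ against DMSO eGFP+ cells the interval was -0.0018 to 2.96, at an unadjusted p of 0.0342 (edgeR). CPM use TMM-scaled library sizes, and RPKM divide them by exon length in GENCODE M21, which held 91.76% of the identifiers by ID. Promoter windows came from RefSeq (GRCm38.p6). Named genes were the 10 genes, up to 4 called genes of each list or else its 2 most abundant, overlapping genes, the reporter genes and the 3 genes most like Igfbp5 and Igfbp2. Some genes of the marker lists were also named, to describe cell content. The fit was also run on simulated data, with no outcome given here, so that run is no evidence for the fit. Alternatives were RLE scaling, DESeq2 1.42.0, limma-voom (limma 3.58.1), other filters, a fit of the compared groups alone, library number as a block, each library left out, and, chosen after seeing the data, a fit without ribosomal RNA and mitochondrial genes.

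Residuals of same-numbered DMSO tdTomato+ and DMSO eGFP+ libraries correlated at 0.671 to 0.688 in all 3 pairs (other pairs -0.520 to 0.147), so library number pairs them. No libraries of a group agreed within counting noise (lowest chi-square per degree of freedom 86.1). Total counts of 15355459 to 20408696 a library set the counting precision.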

Additional observations from a re-analysis of the deposited data

Results flagged for a closer look

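Peg10 in DMSO eGFP+ cells was marked because 1 library lay far from the other 3: library 5 was at 16.1 CPM, and libraries 1, 3 and 4 were at 6.47 to 7.37 CPM. Chance marks about 1 group of values in 20 under this criterion.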

How the results depend on the processing

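Over the 10 genes and the 3 comparisons, settings other than leaving out a library kept the direction of each log2 fold change with 1 exception: without a filter on low counts Igfbp3 in DMSO tdTomato+ against DMSO eGFP+ cells was -0.00074, against 0.018 as reported. The number of calls depended on the test, while the call of Igfbp2 in both Fsk comparisons did not. For Fsk against DMSO tdTomato+ cells, the count of called genes among the 10 was 1 as reported, 3 in DESeq2, 4 without a filter and 2 with only the compared groups in the fit. The count in the pathway lists was 1 as reported, 6 in DESeq2, 5 without a filter and 3 with only the compared groups, and over all genes it was 92, 569, 462 and 260. For DMSO tdTomato+ against DMSO eGFP+ cells the count over all genes was 0 as reported, 13 in DESeq2 and 18 without a filter. Against DMSO eGFP+ cells, Fsk tdTomato+ cells gave 3 among the 10 genes as reported and 6 without a filter, with 4 as reported, 11 in DESeq2 and 10 without a filter in the pathway lists and 220, 802 and 800 over all genes. The cause of these differences was not tested.

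With library number as a replicate block, the counts for Fsk against DMSO tdTomato+ cells were 4 among the 10 genes, 5 in the pathway lists and 508 over all genes. For DMSO tdTomato+ against DMSO eGFP+ cells the block gave 14 over all genes, and for Fsk tdTomato+ against DMSO eGFP+ cells 9 in the pathway lists and 820 over all genes; it changed no other call of the 10 genes than Igf1, Igfbp3 and Igfbp4 in the first comparison and Igfbp3 in the last, all called under the block. For Fsk against DMSO tdTomato+ cells the blocked log2 fold changes were 2.58 for Igf1 (adjusted p = 0.00522, edgeR), against 3.53 as reported, 1.78 for Igfbp3 (0.0298) and 1.72 for Igfbp4 (0.0275), and in the last comparison 2.07 for Igfbp3 (0.00457). The shared numbers gave 2 pairs (0.138 and 0.355) between Fsk and DMSO tdTomato+ cells and 3 pairs (0.0769 to 0.410) between Fsk tdTomato+ and DMSO eGFP+ cells, which leaves only a shared number there.

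Leaving out 1 library gave, for Fsk against DMSO tdTomato+ cells, 1 call in every fit among the 10 genes, 0 to 1 in the pathway lists and 22 to 75 over all genes. For Fsk tdTomato+ against DMSO eGFP+ cells it gave 1 to 4 (1 without DMSO eGFP+ library 4), 1 to 6 and 51 to 469, and for the DMSO comparison 0 throughout. Directions turned in uncalled genes. For DMSO tdTomato+ against DMSO eGFP+ cells the log2 fold changes ran over -0.44 to 0.85 for Igf1, -0.25 to 1.26 for Igf2, -0.098 to 0.42 for Igf2r, -0.074 to 0.35 for Igfbp2, -0.57 to 0.74 for Igfbp3 and -0.87 to 0.079 for Igfbp6. For Fsk against DMSO tdTomato+ cells they ran over -0.16 to 0.59 for Igf2 and -0.99 to 0.057 for Igfbp6, and for Fsk tdTomato+ against DMSO eGFP+ cells over -0.068 to 1.48 for Igf2. Among the 10 genes depth limits mainly Igfbp6, with 32 to 159 reads a library. Of the called pathway genes, Stc1 rested on 10 to 23 reads in DMSO eGFP+ libraries. Pappa2 rested on 24 to 56 reads there and on 30 to 98 reads in DMSO tdTomato+ libraries.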
